A study of Mus musculus with 359 samples.

Results

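Livers of female and male B6C3F1 mice fed 4-methylimidazole (4-MEI) at 1250 ppm for 5 days were compared with livers of mice on vehicle feed. 4-MEI is a small imidazole that occurs as a by-product in caramel colours. The members are the 24 liver libraries of day 5 whose titles name 1250 ppm or vehicle (VC), out of 359 libraries in the series: 6 of females at 1250 ppm, 6 of females on vehicle, 6 of males at 1250 ppm and 6 of males on vehicle. The vehicle groups received 0 ppm in feed, and every group carried the same strain background. The labels used here give neither the age of the mice nor their housing, and they do not state that each library is a separate animal, so the p-values below measure the spread between these libraries. RNA was sequenced from poly(A)-selected, strand-marked libraries, and the deposited values are read counts per gene. Levels are given as CPM, each count as a share of its library total, scaled with TMM factors, which adjust for differences in library composition, and the main comparison averages the effect of 1250 ppm over the sexes.

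The liver meets foreign compounds with cytochrome P450 enzymes, which oxidise them, with transferases, which attach glucuronic acid, sulfate or glutathione, and with transporters, which pass the products to bile or blood. Many of these genes are switched on by the nuclear receptors CAR and PXR, and Cyp2b10 and Cyp3a11 are the textbook mouse targets of CAR and PXR. The aryl hydrocarbon receptor (AHR) acts on a partly separate set that includes Cyp1a2.

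Promoter sequences are shown for the P450 genes on which the results turn. Of the 8 genes that were higher at 1250 ppm, 6 (Cyp2c29, Cyp2c50, Cyp2c55, Cyp3a11, Ugt2b35 and Cyp1a2) matched the RefSeq promoter table of build GRCm38.p6, and the other two are Cyp2c54 and Abcc3. Each line gives the 250 bases before the RefSeq start of the gene, 5′ to 3′ on the strand of the gene. Capitals mark 3 motifs: the nuclear receptor half-site AGGTCA, a variant of that half-site spelled AGTTCA, and the TATA box TATAAA. A match on the other strand appears as its reverse complement, so the variant reads TGAACT in the Cyp2c50 and Cyp3a11 lines.
Cyp2c29, chr19:39286835-39287084, plus strand: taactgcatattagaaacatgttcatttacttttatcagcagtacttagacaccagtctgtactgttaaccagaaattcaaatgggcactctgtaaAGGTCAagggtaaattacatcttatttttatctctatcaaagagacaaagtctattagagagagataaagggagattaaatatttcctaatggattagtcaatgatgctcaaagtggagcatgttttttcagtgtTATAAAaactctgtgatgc
Cyp2c50, chr19:40089429-40089678, plus strand: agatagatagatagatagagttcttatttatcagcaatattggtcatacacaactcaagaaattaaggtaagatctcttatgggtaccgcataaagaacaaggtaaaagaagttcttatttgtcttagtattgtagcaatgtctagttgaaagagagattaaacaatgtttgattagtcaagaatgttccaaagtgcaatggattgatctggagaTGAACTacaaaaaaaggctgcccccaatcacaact
Cyp2c55, chr19:39006769-39007018, plus strand: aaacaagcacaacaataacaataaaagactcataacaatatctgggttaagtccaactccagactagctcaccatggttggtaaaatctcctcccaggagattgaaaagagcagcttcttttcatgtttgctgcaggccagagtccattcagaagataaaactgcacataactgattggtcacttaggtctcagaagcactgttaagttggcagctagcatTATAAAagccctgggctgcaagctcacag
Cyp3a11, chr5:145879855-145880104, minus strand: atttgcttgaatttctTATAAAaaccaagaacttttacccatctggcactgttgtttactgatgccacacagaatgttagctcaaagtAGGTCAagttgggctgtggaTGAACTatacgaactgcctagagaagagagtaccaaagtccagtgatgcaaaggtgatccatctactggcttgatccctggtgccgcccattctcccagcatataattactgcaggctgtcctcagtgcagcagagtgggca

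Motifs were searched on both strands and none of the matches overlapped. AGGTCA occurred in 3 of the 6 windows (Cyp2c29, Cyp3a11 and Ugt2b35), against 13.8% of 27025 promoter windows of the same length. AGTTCA occurred in 2 of the 6 (Cyp2c50 and Cyp3a11), against 11.9% of all windows. TATAAA stood in 4 of the 6 and in 13% of all windows, and the core GCGTG, to which AHR binds, in none of the 6 and in 28.2% of all windows. In Cyp3a11 the half-site AGGTCA began 162 bases before the start, and TATAAA lay further upstream, 234 bases before it. In Cyp2c29 the order was the reverse, with TATAAA 19 bases before the start and AGGTCA further upstream. These distances count from the RefSeq starts, while the gene spans given below come from a different annotation. By that annotation the Cyp2c29 window lies inside the gene (39269405 to 39330713) and the Cyp3a11 window overlaps its gene (145854426 to 145879964). Distances from those starts would differ. After alignment, 55.9% of the columns of the Cyp2c29 and Cyp2c50 windows were identical. A match describes letters in the window and not a bound site.

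Library totals ran from 14788257 to 22527309 counts in 1250 ppm females, 13551105 to 16842897 in vehicle females, 13062536 to 13772605 in 1250 ppm males and 11070867 to 12763239 in vehicle males, so the male groups did not overlap in depth. Y-linked genes and Xist matched the titled sex in 60 of 60 liver libraries of day 5. The title numbers fall into blocks of 8 for each dose and sex, so dose and any order or housing that follows the numbers cannot be told apart. The vehicle males also had the highest median of the nuclear RNA Malat1 among the day 5 groups, as described with the lower genes.

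At 1250 ppm, 17 of 12836 tested genes changed with the sexes averaged (0.132% of those tested, edgeR quasi-likelihood test with Benjamini-Hochberg adjusted p under 0.05). Of these, 8 were higher (0.0623% of genes tested) and 9 were lower (0.0701%). All 8 higher genes encode proteins that handle foreign compounds: the P450 enzymes Cyp2c29, Cyp2c50, Cyp2c54, Cyp2c55, Cyp3a11 and Cyp1a2, the glucuronosyltransferase Ugt2b35 and the transporter Abcc3. Their rises were small, from 1.21-fold for Abcc3 to 2.33-fold for Cyp2c55. The 9 lower genes were Fam193b, Ccnl2, Cyp2d37-ps, Mir3064, Fendrr, BC024386, Slc2a4rg-ps, Cops7b and Adrb3, with no drug-metabolising enzyme gene other than the pseudogene Cyp2d37-ps among them. With only the 24 libraries in the fit, 5 genes passed, all higher. These 5 were Cyp2c54, Cyp2c50, Cyp2c29, Cyp3a11 and Cyp2c55, and each passed in all 6 alternative fits and in all 24 fits that left out 1 library. In the fit of the 24 libraries 575 of 12508 genes had an unadjusted p under 0.05, against 699 of 12836 in the fit of all 60. With no effect at any gene, a share of about 0.05 of the genes tested would have such a p. Such counts, here and below, are therefore not read as changed genes.

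Cyp2c54 (chromosome 19, 40037940 to 40073827, minus strand), a P450 enzyme that also oxidises fatty acids, rose in both sexes. Its lowest, median and highest levels were 670.4, 738 and 794 CPM in 1250 ppm females, against 494, 554 and 607 CPM in vehicle females. In males they were 489, 569.7 and 577 CPM at 1250 ppm and 346, 401 and 445 CPM on vehicle. Every treated library lay above every vehicle library of its sex. The log2 fold change was 0.45 with the sexes averaged (SE 0.051, adjusted p = 6.01e-08), 0.41 in females (adjusted p = 0.00292) and 0.49 in males (adjusted p = 0.00015, all from edgeR).

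Cyp2c50 (chromosome 19, 40089688 to 40113950, plus strand), a close relative of Cyp2c54 and its neighbour on the chromosome, did the same. The levels were 1350.5, 1555 and 1791 CPM in 1250 ppm females, against 1062, 1226 and 1295 CPM in vehicle females. Males had 1204, 1305 and 1358 CPM at 1250 ppm and 846, 961 and 1036 CPM on vehicle, and the groups were apart in both sexes. The rise was 0.42 log2 (SE 0.05, adjusted p = 1.5e-07). Reads can be split between such copies: 25.7% of the 50-base windows of the Cyp2c54 transcript and 16.6% of those of Cyp2c50 recur in transcripts of another gene, mostly in each other and in Cyp2c37, so the values of the single genes are uncertain to that extent.

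Cyp2c29 (chromosome 19, 39269405 to 39330713, plus strand) is an abundant P450 of mouse liver that oxidises drugs and arachidonic acid. Females at 1250 ppm held 2331, 3098 and 4049.9 CPM, against 1399.9, 1767 and 2248 CPM in vehicle females. Males at 1250 ppm held 3183, 3372 and 3726 CPM, against 2062, 2393 and 2823 CPM in vehicle males. The groups did not overlap in either sex. The means were 3197 ± 592 CPM in 1250 ppm females and 1765 ± 305 CPM in vehicle females, and 3411 ± 179 CPM in 1250 ppm males and 2401 ± 340.4 CPM in vehicle males (SD, n = 6 each). The rise was 0.68 log2 with the sexes averaged (SE 0.097, adjusted p = 1.49e-05) and 0.86 in females (adjusted p = 0.000896, edgeR), while the male value of 0.51 had an adjusted p of 0.168. The annotated span of Cyp2c29 overlaps the pseudogene Cyp2c53-ps on the same strand, which had a log2 fold change of 0.90 (adjusted p = 0.505).

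Cyp2c55 (chromosome 19, 39007019 to 39042693, plus strand) is a low-abundance member in untreated liver and had the largest fold change of the 17 genes. Its levels were 8.1, 23.1 and 32.1 CPM in 1250 ppm females and 4.34, 6.44 and 13.6 CPM in vehicle females, where 5 of 6 treated libraries lay above the highest vehicle library. In males they were 19.7, 26.4 and 30.7 CPM at 1250 ppm and 10.2, 11.6 and 19.3 CPM on vehicle, without overlap. The rise was 1.22 log2 (SE 0.22, adjusted p = 0.00287), with 1.56 in females (adjusted p = 0.03) and 0.89 in males (adjusted p = 0.442).

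Not overlapping in both sexes was rare: 3 of 12836 genes lay wholly higher at 1250 ppm in females and in males (0.0234%), and these were Cyp2c29, Cyp2c50 and Cyp2c54. In the other direction there was 1 gene (0.00779%), Klhl26, which is named here after its values were seen and did not pass the test with a log2 fold change of -0.28 (adjusted p = 0.0987). In females alone 14 genes were apart in either direction (0.109%), and in males alone 57 (0.444%).

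The rest of the Cyp2c family did not pass the test. Of 14 tested members, 4 rose and none fell, where 0.0623% of all 12836 genes rose and 0.0701% fell. Their median log2 fold change was 0.18, beside a median of -0.0006 over all genes. Scaled by the length of the annotated exons, Cyp2c29 averaged 1044 ± 193 CPM per kb in 1250 ppm females and 577 ± 99.6 in vehicle females (SD, n = 6 each). Cyp2c50 stood at 537 ± 49.6 and 408 ± 32.4 CPM per kb in the same groups. Cyp2c37 stood at 478 ± 53.6 and 453 ± 62.2 CPM per kb. By annotated exon length, Cyp2c29 had the highest level per kb of the family in both female groups. Next came Cyp2c50 at 1250 ppm and Cyp2c37 on vehicle. The order depends on the length used: the annotated exons cover 2918 bases for Cyp2c50 and 3061 for Cyp2c29. Their longest transcripts have 1824 and 2822 bases, and levels by transcript length were not ranked. Among members named after their values were seen, Cyp2c37, Cyp2c38 and Cyp2c39 had log2 fold changes of 0.08, -0.11 and -0.13 in females and 0.34, 0.47 and 0.52 in males, none past the threshold. Cyp2c68 and Cyp2c70 were at -0.03 each with the sexes averaged.

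Cyp3a11 (chromosome 5, 145854426 to 145879964, minus strand), the main Cyp3a enzyme of mouse liver, rose as well. Females had 3377, 4071 and 4685 CPM at 1250 ppm and 1739.6, 2974 and 3436 CPM on vehicle, and 4 of 6 treated libraries exceeded the highest vehicle library. Males had 3054, 3356 and 4067 CPM at 1250 ppm and 2095, 2412 and 2565 CPM on vehicle, with no overlap. The log2 fold change was 0.53 (SE 0.08, adjusted p = 6.22e-05), and none of the 50-base windows of its transcript recurs in another gene. It passed in males at 0.55 (adjusted p = 0.0271, edgeR), and the female value was 0.51 (adjusted p = 0.0959). Of 7 tested Cyp3a genes it was the only one past the threshold, and Cyp3a25 and Cyp3a13 had log2 fold changes of 0.12 and 0.06.

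Cyp2b10, the textbook CAR target, did not pass with the sexes averaged. Females held 28.1, 100.4 and 136.5 CPM at 1250 ppm and 25.6, 57.6 and 86.7 CPM on vehicle, with wide overlap. Males held 11.6, 13.3 and 24.2 CPM at 1250 ppm and 2.62, 5.38 and 11.3 CPM on vehicle, and these 2 groups were apart. The log2 fold change was 1.00 (SE 0.29, adjusted p = 0.255), with a male value of 1.36 (adjusted p = 0.394) and a female value of 0.65 (95% interval -0.10 to 1.40). It passed in 1 of 6 alternative fits, the one with a term for the place of a library within its block of numbers (adjusted p = 0.0357). Of the 50-base windows of its transcript, 9.69% recur elsewhere, mostly in Cyp2b13.

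Ugt2b35 (chromosome 5, 87000860 to 87013275, plus strand) attaches glucuronic acid to lipophilic compounds. Females had 194, 263 and 286 CPM at 1250 ppm and 137.2, 188 and 249 CPM on vehicle. Males had 401, 423 and 560.4 CPM at 1250 ppm and 295, 355 and 403 CPM on vehicle. In each sex 5 of 6 treated libraries lay above the highest vehicle library. It rose by 0.38 log2 (SE 0.078, adjusted p = 0.0137) and passed in 4 of 6 alternative fits and 22 of 24 fits without 1 library.

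Abcc3 (chromosome 11, 94343295 to 94392997, minus strand) exports glucuronides from hepatocytes to the blood. Its levels were 416, 463 and 497 CPM in 1250 ppm females and 319.8, 413 and 466 CPM in vehicle females. Males showed 370.4, 434 and 486 CPM at 1250 ppm and 279.7, 334 and 405 CPM on vehicle. The groups overlapped in both sexes, and the rise of 0.27 log2 was the smallest of the 8 (SE 0.062, adjusted p = 0.0466). It passed in 3 of 6 alternative fits and 6 of 24 fits without 1 library.

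Cyp1a2 (chromosome 9, 57676937 to 57683703, minus strand) oxidises aromatic amines and caffeine and is present in untreated liver. Females had 1411, 1617 and 1759.5 CPM at 1250 ppm and 887, 1077 and 1619 CPM on vehicle. Males had 1403, 1604 and 1848 CPM at 1250 ppm and 1198, 1246 and 1309 CPM on vehicle, with all treated libraries above all vehicle libraries. It rose by 0.40 log2 (SE 0.088, adjusted p = 0.0344) and passed in 4 of 6 alternative fits and 11 of 24 fits without 1 library. Of the 50-base windows of its transcript 4.97% recur in Cyp1a1. It is the only one of 6 tested AHR targets past the threshold, and Cyp1a1, which responds most steeply to AHR ligands, had a log2 fold change of 0.14 (SE 0.17).

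**Figure D1:**
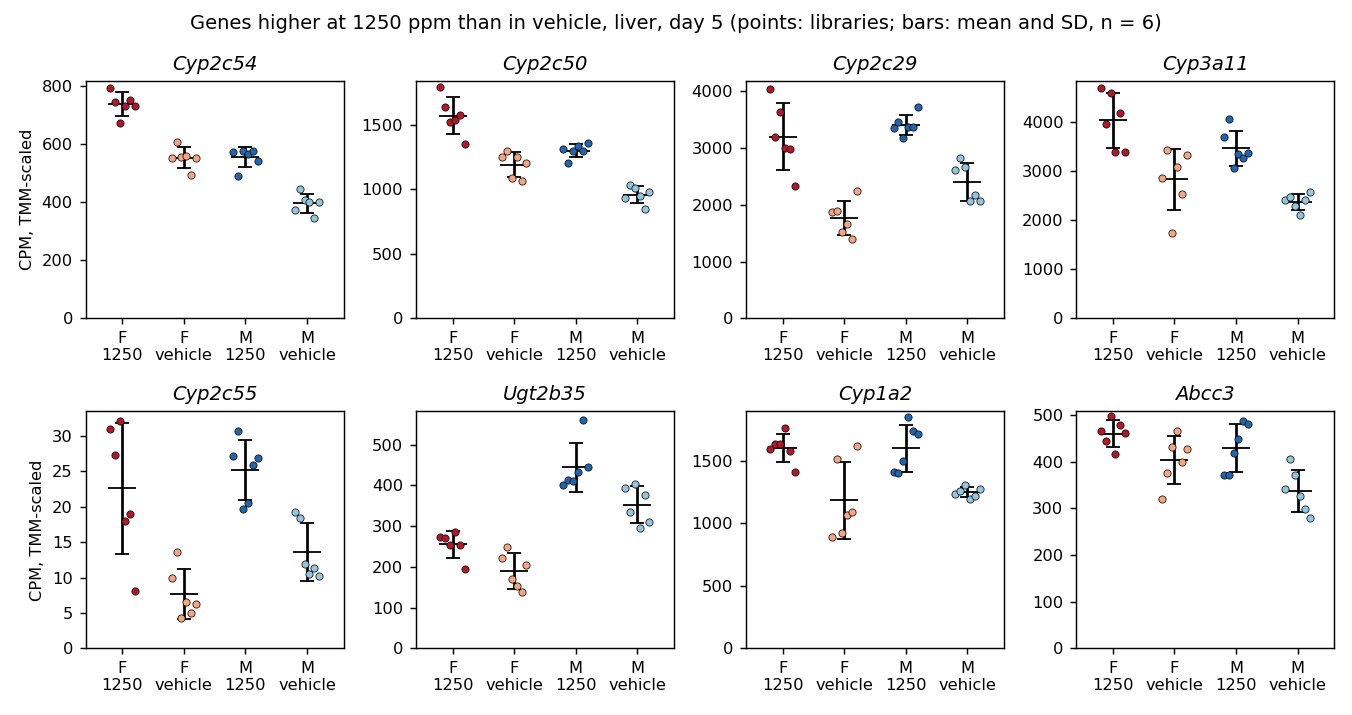
Levels of the 8 higher genes in each liver library of day 5 (vertical axis, CPM scaled with TMM factors) for 1250 ppm and vehicle in females (F) and males (M). Points are libraries and bars are the mean and SD of 6. Cyp2c54, Cyp2c50 and Cyp2c29 are apart from vehicle in both sexes, while Abcc3 overlaps in both.

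Over the feed doses 0, 150, 300, 1250 and 2500 ppm, mean Cyp2c54 was 553, 565, 591, 737 and 738 CPM in females and 395, 451, 447, 554 and 627 CPM in males. Mean Cyp2c29 was 1765, 1706, 1815, 3197 and 3388 CPM in females and 2401, 2486, 2369.9, 3411 and 4059 CPM in males. Mean Cyp3a11 was 2830.2, 2866, 2844, 4029 and 4513 CPM in females and 2373, 2541, 2262, 3464 and 4284 CPM in males. For these 3 genes the largest step between neighbouring doses came between 300 and 1250 ppm in both sexes. They were picked among the genes called at 1250 ppm, which itself favours a step there, so the step is a description. No gene passed at 150 or 300 ppm with the sexes averaged (451 and 528 with an unadjusted p under 0.05, edgeR), against the 17 at 1250 ppm. In males alone 5 genes were lower at 300 ppm (0.039%) and none at 150 ppm (440 with an unadjusted p under 0.05); they are given with the male results. At 2500 ppm 78 passed against vehicle (0.608%), 46 higher (0.358%) and 32 lower (0.249%). All these contrasts share the vehicle libraries, so the values are given side by side: the log2 fold changes at 2500 and at 1250 ppm were 0.54 and 0.45 for Cyp2c54, 0.85 and 0.68 for Cyp2c29, 0.76 and 0.53 for Cyp3a11 and 1.37 and 1.22 for Cyp2c55.

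Tested directly, 2500 against 1250 ppm called 1 gene of 12836 (0.00779%) and 625 had an unadjusted p under 0.05. It was Msmo1, an enzyme of cholesterol synthesis, which was higher at 2500 ppm by 0.50 log2 (SE 0.092, adjusted p = 0.0136, edgeR). Its mean over the doses was 382, 388, 369, 399 and 649.6 CPM in females and 417, 391, 464, 468 and 578 CPM in males, and its log2 fold change at 1250 ppm was 0.11 (SE 0.092). With DESeq2 12 genes passed and with only the 4 groups compared 0 did (644 with an unadjusted p under 0.05). For the 8 higher genes the difference of 2500 minus 1250 ppm ran from -0.03 for Ugt2b35 to 0.24 for Cyp3a11, whose 95% interval was 0.08 to 0.39. That of Cyp2c50 was 0.04 (95% interval -0.06 to 0.14).

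**Figure D2:**
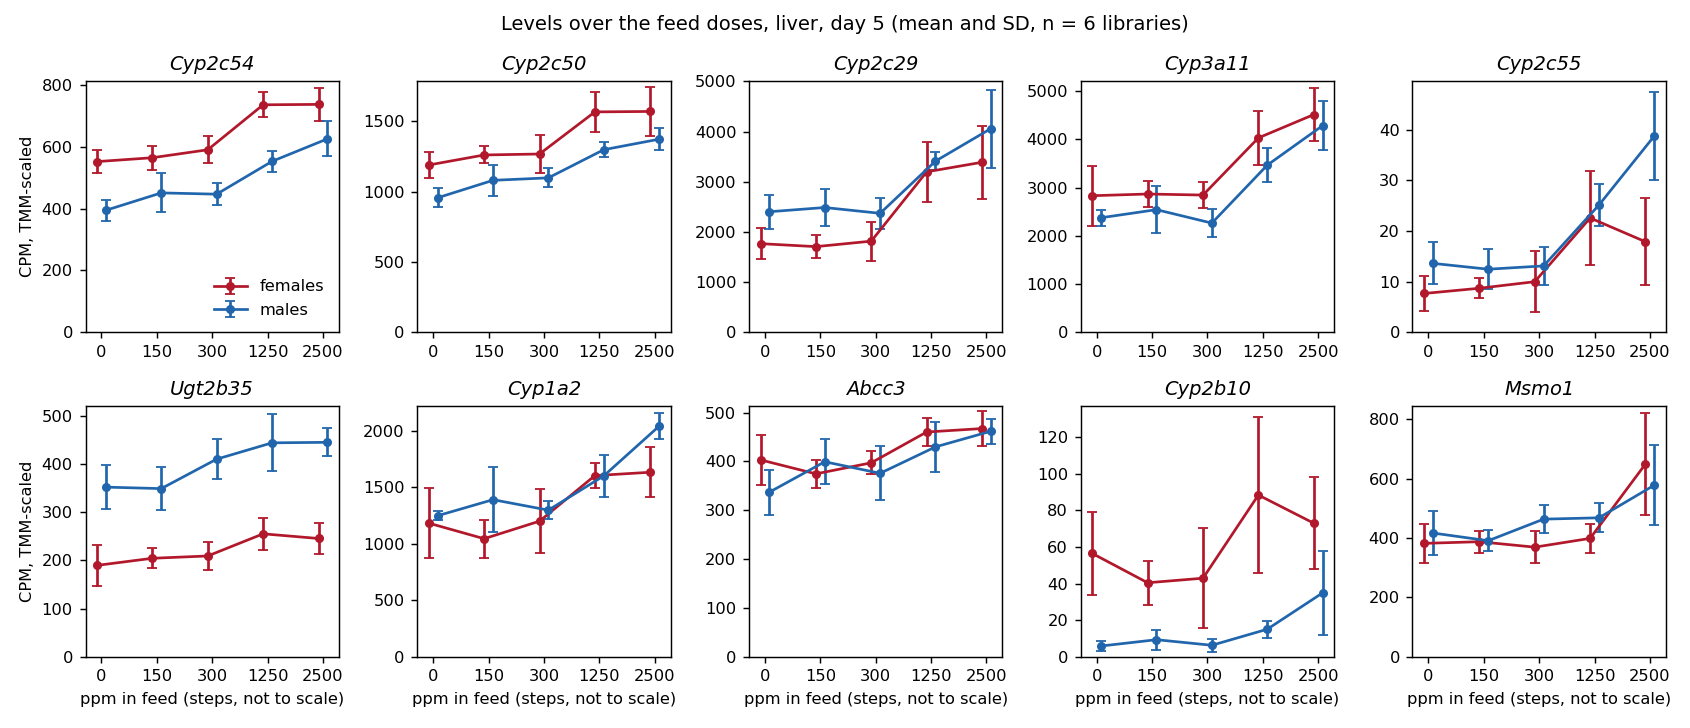
Mean and SD (n = 6 libraries) of 10 genes in liver at day 5 over the feed doses, in females and males. The horizontal axis gives the doses as equal steps and the vertical axis CPM scaled with TMM factors. Most of the 8 higher genes are flat up to 300 ppm and higher at 1250 ppm, and Msmo1 is higher at 2500 ppm. The 8 genes were chosen for passing at 1250 ppm, which favours a step there.

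The 9 lower genes moved little, by 0.29 to 0.60 log2, and none was apart from vehicle in both sexes. Ccnl2, a cyclin that works in splicing, held 54.8, 68.3 and 71.4 CPM in 1250 ppm females and 67.6, 72.6 and 91.6 CPM in vehicle females. Males held 53.8, 65.8 and 87.3 CPM at 1250 ppm and 84.7, 90.5 and 92.4 CPM on vehicle, and 5 of 6 treated males lay below every vehicle male. It fell by 0.32 log2 (SE 0.063, adjusted p = 0.0115). Fam193b had 30.8, 36.4 and 39.9 CPM in 1250 ppm females and 37.1, 40.5 and 45 CPM in vehicle females. In males it had 29.6, 34.2 and 49.6 CPM at 1250 ppm and 44.5, 49.2 and 56.6 CPM on vehicle, and it fell by 0.31 log2 (SE 0.061, adjusted p = 0.00843). The vehicle males were the highest group of both genes.

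Cyp2d37-ps, a pseudogene of the Cyp2d family, had -0.50 in females, -0.41 in males and -0.45 averaged (SE 0.093, adjusted p = 0.0137). Its levels were 29.2, 36 and 37.4 CPM in 1250 ppm females and 36.8, 46.6 and 69.4 CPM in vehicle females, and 33.8, 37.9 and 50.9 CPM in 1250 ppm males and 47.7, 50.9 and 61.6 CPM in vehicle males. Mir3064 and the long noncoding RNA Fendrr were scarce, at no more than 4.69 and 3.76 CPM in any of the 24 libraries, and had log2 fold changes of -0.60 and -0.57 (adjusted p = 0.0344 each). Mir3064 is annotated as 67 bases inside Ddx5 on the same strand, so its counts are not a measure of the mature miRNA, and Ddx5 itself had -0.22 (adjusted p = 0.397). Fendrr and Adrb3, a beta-adrenergic receptor best known from fat, each overlap a gene annotated on the opposite strand, and the strand setting of the counting is not given in the sources used here. Cops7b encodes a subunit of the COP9 signalosome, and it fell by 0.33 log2 (SE 0.075, adjusted p = 0.0356). Adrb3 fell by 0.41, BC024386 by 0.29 and the pseudogene Slc2a4rg-ps by 0.40.

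With only the 24 libraries in the fit none of these 9 genes passed, and of the 8 higher genes Ugt2b35, Cyp1a2 and Abcc3 did not pass either. Without 1 library at a time, Fam193b passed in 24 of 24 fits and Ccnl2 and Cyp2d37-ps in 23, more often than Ugt2b35, Cyp1a2 and Abcc3. The other 6 passed in 7 (Cops7b and Adrb3) to 11 (Mir3064) of 24. Against 9 lower genes with all libraries, 1 was lower without vehicle female LIVER_094. Without 1250 ppm male LIVER_133 or LIVER_134, 1250 ppm female LIVER_138, vehicle female LIVER_090 or vehicle male LIVER_085, 3 were lower. Without 1250 ppm female LIVER_137 or LIVER_144, or vehicle female LIVER_091 or LIVER_095, 4 were lower. Without 1250 ppm male LIVER_130, 21 were lower. Over the 24 such fits the higher genes numbered 5 to 9.

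**Figure D3:**
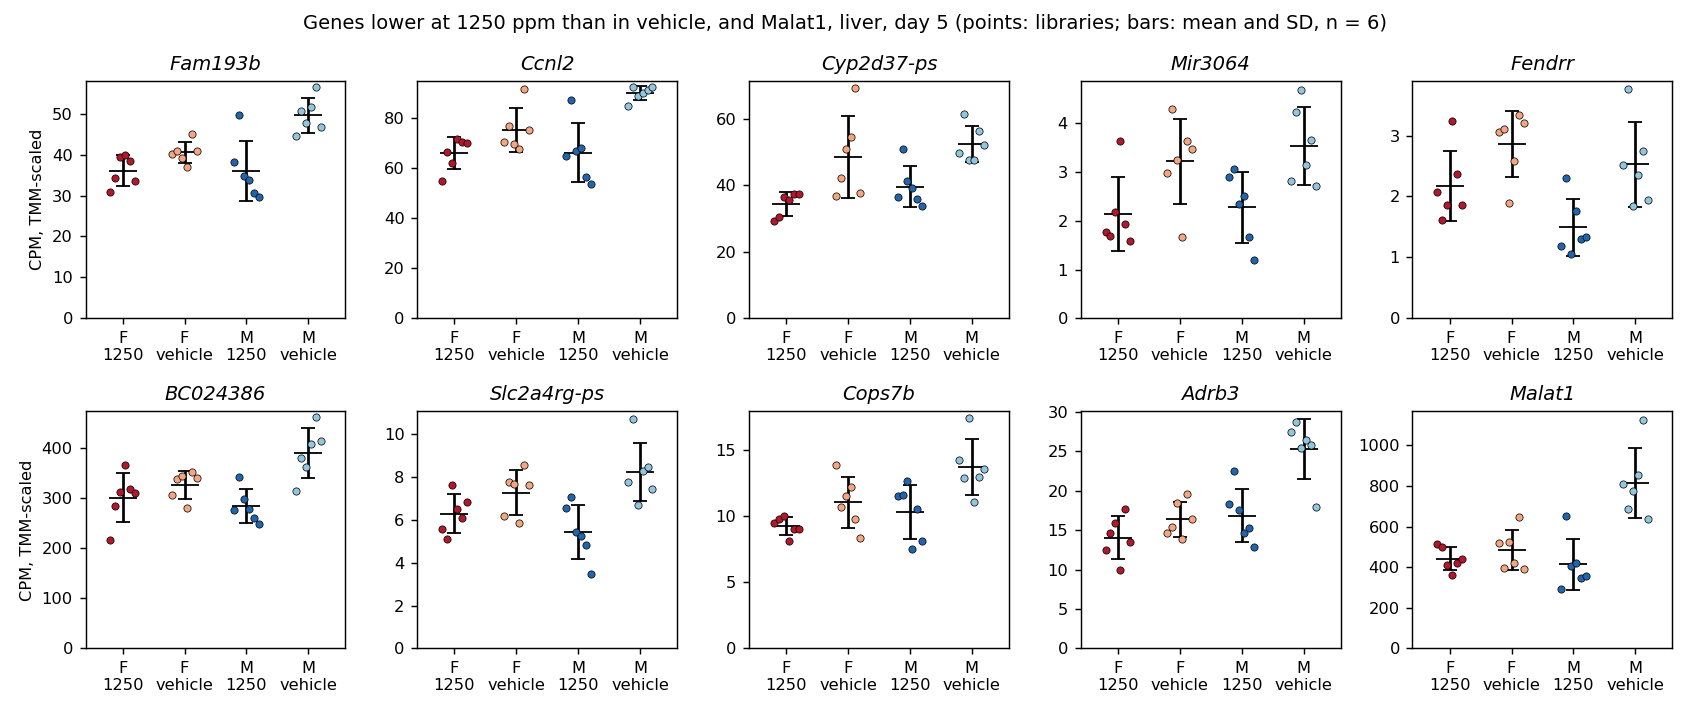
Levels of the 9 lower genes and of Malat1 in each liver library of day 5 (vertical axis, CPM scaled with TMM factors), with the mean and SD of 6 libraries. Groups are 1250 ppm and vehicle in females (F) and in males (M). For most of them the vehicle males are the highest group and 1 treated male, library LIVER_130, is the highest treated male for each gene shown other than Cops7b.

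In males alone 13 genes changed (0.101%), 5 higher (0.039%) and 8 lower (0.0623%). The higher ones were Cyp2c54, Cyp2c50, Cyp3a11, Nrp2 and Xkr8. Xkr8, which exposes phosphatidylserine on dying cells, had 6.56, 7.54 and 8.22 CPM in 1250 ppm males and 4.78, 5.66 and 5.83 CPM in vehicle males, without overlap, and rose by 0.46 log2 (SE 0.099, adjusted p = 0.028). Nrp2, a receptor for semaphorins and VEGF, had 15.2, 18.5 and 22.8 CPM in 1250 ppm males and 7.72, 10.8 and 15.5 CPM in vehicle males and rose by 0.71 (SE 0.15, adjusted p = 0.028). In females the values were -0.14 for Nrp2 and -0.03 for Xkr8. The lower ones were Malat1, Rpph1, Pabpn1, Fam193b, Ccnl2, BC024386, Slc2a4rg-ps and Adrb3.

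Malat1, a nuclear noncoding RNA, held 294, 382 and 653 CPM in 1250 ppm males, against 638, 793 and 1126 CPM in vehicle males. In females it held 362, 431 and 514 CPM at 1250 ppm and 392, 468 and 646 CPM on vehicle. The vehicle males had the highest median of the 4 groups, 5 of 6 treated males lay below every vehicle male, and 1 treated male (library LIVER_130) reached their range. Its male log2 fold change was -0.98 (SE 0.21, adjusted p = 0.0273) and its female one -0.13. Mean Malat1 in males over the doses was 815, 509.8, 515, 413 and 372 CPM, so the mean of vehicle males exceeded that of each dose. Rpph1, the RNA of ribonuclease P, overlaps the protein-coding gene Ccnb1ip1 on the same strand, so its counts may hold reads of that gene. It had 0.288, 0.482 and 0.69 CPM in 1250 ppm males and 0.754, 1.3 and 1.5 CPM in vehicle males, a log2 fold change of -1.31 (SE 0.28, adjusted p = 0.028), without overlap. Pabpn1, a nuclear poly(A)-binding protein, fell in males by 0.37 (SE 0.079, adjusted p = 0.0273). The 8 lower calls in males became 0 without 1250 ppm male LIVER_133 or LIVER_134 or vehicle male LIVER_085, 4 without 1250 ppm male LIVER_132 or vehicle male LIVER_084, and 25 without 1250 ppm male LIVER_130. The 5 higher calls became 2 without 1250 ppm male LIVER_133 or LIVER_134 or vehicle male LIVER_083, LIVER_084 or LIVER_085, and 3 without vehicle male LIVER_088. With only the 2 male groups in the fit 3 genes passed, all higher. The part of the high Malat1 of the vehicle males in these calls was not tested. The libraries were poly(A)-selected, and the part of that selection in the counts of Malat1 and Rpph1 was not tested either.

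In males 5 genes were also lower at 300 ppm, a contrast that uses the same vehicle males, so its values are given beside those at 1250 ppm without a comparison. The male log2 fold changes at 300 and at 1250 ppm were -0.43 and -0.46 for Fam193b, -0.42 and -0.44 for Ccnl2, -0.43 and -0.46 for BC024386 and -1.37 and -1.31 for Rpph1. The fifth gene, Tle2, a transcriptional corepressor of the Groucho family, had -0.57 and -0.32 (adjusted p = 0.021 and 0.394).

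In females alone 4 genes changed (0.0312%), all higher: Cyp2c29, Cyp2c54, Cyp2c50 and Cyp2c55. With only the 2 female groups in the fit none passed in edgeR, and 347 had an unadjusted p under 0.05, while DESeq2 on the 60 libraries called 5. The difference between the sexes was tested in the same fit, and 0 of 12836 genes differed in edgeR (649 with an unadjusted p under 0.05) and 0 in DESeq2. For Cyp2c54 the female minus male difference was -0.07 (95% interval -0.27 to 0.13), and for Cyp3a11 it was -0.04 (-0.35 to 0.28). Cyp2c29 differed by 0.35 (-0.03 to 0.73), Cyp2b10 by -0.71 (-1.85 to 0.42) and Malat1 by 0.85 (0.28 to 1.42). The smallest adjusted p was 0.765, which Nrp2 shared at -0.85. For Cyp2c54 the interval held no difference as large as its averaged rise of 0.45, while for Cyp2b10 it held differences larger than 1.00.

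The day 28 libraries at 1250 ppm have vehicle groups of their own, and none is shared with day 5. There the titles were used for the groups: in 18 of the 24 libraries the characteristics name another dose and in 12 of the 24 another sex. Y-linked genes and Xist matched the titled sex in 60 of 60 liver libraries. That match bears on sex only, so the titled doses of day 28 remain unchecked. With the sexes averaged, 42 of 12904 genes changed at day 28 (0.325%), 23 higher (0.178%) and 19 lower (0.147%). Of the 8 genes higher at day 5, 6 rose at day 28 (Cyp2c29, Cyp2c50, Cyp2c54, Cyp2c55, Cyp3a11 and Ugt2b35) and all 8 had positive values. Of the 9 lower genes none fell at day 28 and 6 had negative values. The shared 6 genes are 35.3% of the day 5 calls and 14.3% of the day 28 calls.

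Cyp2c29 held 2589, 3639.8 and 3988 CPM in 1250 ppm females of day 28 and 1411, 1692 and 2430.2 CPM in their vehicle group, and 3093, 3708 and 4231 CPM in 1250 ppm males and 2137, 2788 and 3118 CPM in vehicle males. The female groups were apart and the male groups overlapped slightly. The log2 fold changes at day 28 and day 5 were 0.71 and 0.68 for Cyp2c29, 0.38 and 0.45 for Cyp2c54, 1.33 and 1.22 for Cyp2c55 and 0.44 and 0.53 for Cyp3a11. Cyp2b10 passed at day 28 with 1.57 (SE 0.30, adjusted p = 0.00652), where day 5 gave 1.00 (adjusted p = 0.255), but the day 28 minus day 5 difference of 0.56 did not pass (95% interval -0.27 to 1.38). Malat1 fell at day 28 by 0.50 (SE 0.12, adjusted p = 0.0499).

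Tested directly, the effect differed between days for 1 of 13125 genes (0.00762%), with 684 at an unadjusted p under 0.05. It was Rpph1, with 0.66 at day 28 and -0.80 at day 5, a difference of 1.47 (SE 0.27, adjusted p = 0.00491). It was not called with only the groups compared, and its overlap with Ccnb1ip1 and the poly(A) selection of the libraries apply here too. The differences were 0.02 for Cyp2c29 (95% interval -0.25 to 0.29), -0.08 for Cyp2c54 (-0.26 to 0.10) and 0.80 for Fendrr (0.41 to 1.20, adjusted p = 0.302).

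**Figure D4:**
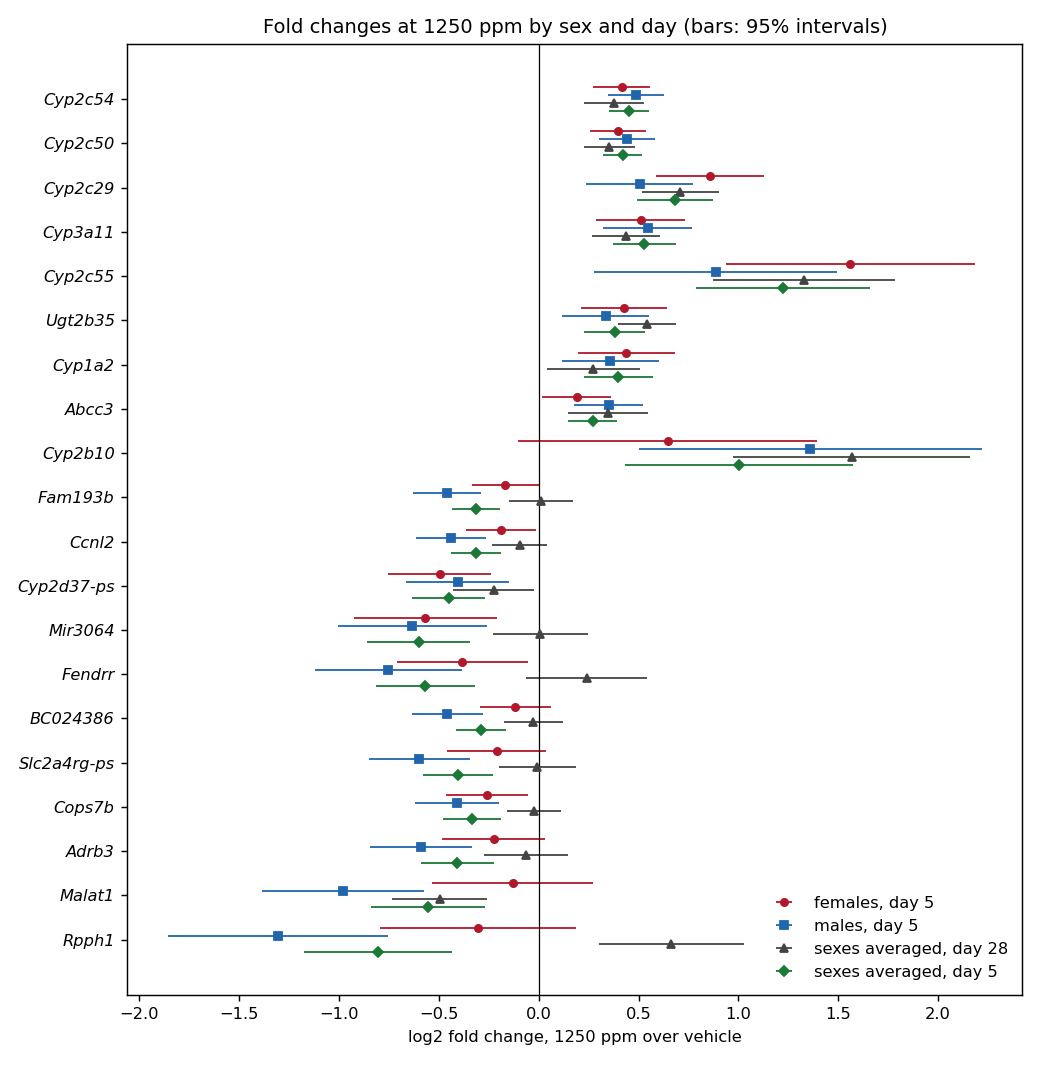
Log2 fold changes of 1250 ppm over vehicle with 95% intervals for the 17 genes, Cyp2b10, Malat1 and Rpph1, in females and males of day 5 and with the sexes averaged at day 28 and day 5. The 8 higher genes lie right of 0 in all 4 rows, whereas most of the 9 lower genes lie near 0 at day 28.

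Among the pathway lists, the P450 targets of CAR and PXR had the highest median. All 12 tested P450 targets had positive values, and 5 rose, where 0.0623% of all 12836 tested genes rose. Their median was 0.38 log2, beside -0.0006 over all genes. These 5 are among the 8 higher genes, and the lists were chosen with earlier results of these data known. Of 27 targets that conjugate or hydrolyse compounds, 1 rose (Ugt2b35), 21 were positive and the median was 0.11. The glutathione transferases Gstm1 and Gstm3 had 0.30 and 0.36 (adjusted p = 0.365 and 0.56), and the carboxylesterase Ces2a had 0.20 (adjusted p = 0.379). Of 9 transporters 1 rose (Abcc3), and the median was 0.13 with the sexes averaged, -0.0031 in females and 0.38 in males. Slco1a4, an uptake carrier, had 0.22 in females and 0.51 in males and did not pass. None of the 22 genes for xenobiotic receptors, the P450 reductase and haem supply passed, 11 were positive and 11 negative, and CAR (Nr1i3) and PXR (Nr1i2) themselves had -0.14 and -0.08.

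Other pathways that answer to chemicals or feeding held no called gene. Of 19 tested NRF2 targets, which guard against oxidants, none passed, 15 were positive and the median was 0.06, with Srxn1 at 0.27 (adjusted p = 0.109). Of 25 sterol synthesis genes none passed, with medians of 0.01 in females and 0.17 in males. None of 17 fatty acid synthesis genes, 24 PPAR-alpha targets, 14 bile acid genes, 14 fasting genes, 19 acute phase genes, 12 stress response genes, 12 p53 targets or 20 cell cycle genes passed, and their medians lay between -0.10 and 0.03. Of 25 interferon-stimulated genes none passed and 22 were negative, with a median of -0.10 and with Bst2 at -0.21 (adjusted p = 0.938). The lists were chosen with earlier results of these data known, and their medians are descriptions without a test.

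Genes with a sex-biased level in liver mostly had opposite signs in females and males, and none passed. In females all 19 female-biased genes had negative values with a median of -0.36, and 18 of 21 male-biased genes had positive values with a median of 0.28. In males, by contrast, 14 of the 19 female-biased genes were positive with a median of 0.16, and 15 of the 21 male-biased genes were negative with a median of -0.11. The spread between libraries was wide for these genes. In males several female-biased genes lay near the floor, so the signs of their male values rest on few reads. Mean male levels at 1250 ppm and on vehicle were 0.03 and 0 CPM per kb for Cyp3a41a. They were 0.03 and 0 for Cyp2b13 and 0.24 and 0.34 for Cyp2b9. Intervals in this paragraph are not adjusted for the number of genes tested. Of the female-biased steroid hydroxylases, Cyp3a41a had -1.10 in females (95% interval -2.12 to -0.07) and Cyp2b9 had -0.07 (-0.66 to 0.52). Female Cyp3a41a averaged 9.88 ± 7.04 CPM per kb at 1250 ppm and 21.3 ± 28.3 on vehicle (SD, n = 6 each). Only 1 of 6 treated females lay below the lowest vehicle female. Whether the members of these lists varied together between libraries was not tested. Of the male-biased genes, Mup20, a urinary pheromone protein, had 0.36 in females (0.03 to 0.68) and -0.13 in males (-0.45 to 0.19).

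**Figure D5:**
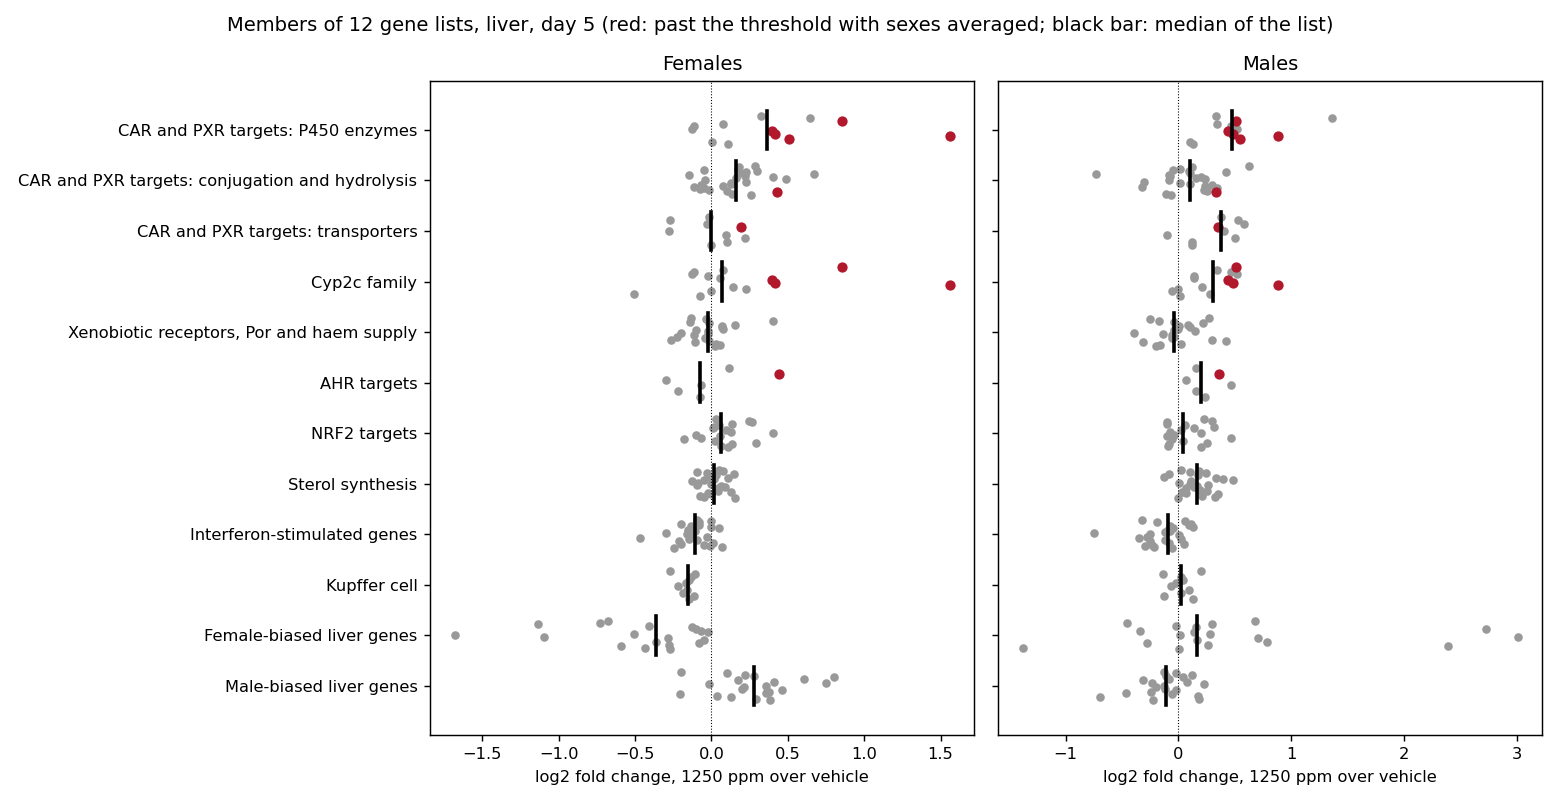
Log2 fold changes of 1250 ppm over vehicle at day 5 for the tested members of 12 gene lists, females left and males right, with separate horizontal scales. Red points passed the threshold with the sexes averaged and black bars are list medians. The P450 targets lie mostly right of 0 in both sexes, and the medians of the sex-biased lists lie on opposite sides. Several female-biased genes are near the floor in males.

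Markers of liver cell types were read alongside. The summed hepatocyte markers (8 of 8 in the table) were 177710.0, 191665 and 192671 CPM in 1250 ppm females and 191235, 197565 and 213865 CPM in vehicle females, and 129474, 140445 and 158674 CPM in 1250 ppm males and 126904, 147467 and 182468 CPM in vehicle males, so the tissue label fits its markers. None of the 8 hepatocyte markers passed, and in females their lowest log2 fold change was -0.10. Alb was lower in all 6 treated females than in every vehicle female, and is among the 14 genes apart in females (0.109%). Markers of pericentral hepatocytes, the zone richest in P450 enzymes, summed to 13120.1, 16926 and 19603 CPM in 1250 ppm females and 13817, 14741 and 17554 CPM in vehicle females. In males the sums were 15136, 16986 and 18580.0 CPM at 1250 ppm and 13179, 15905 and 18596 CPM on vehicle. Of the 10 markers 9 were positive and 1 passed, Cyp1a2, which is itself among the 8 higher genes. The sums overlapped in both sexes, and their part in the rise of the enzymes was not tested.

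Kupffer cells, the macrophages of liver, had marker sums of 361, 448 and 517 CPM in 1250 ppm females and 454, 496 and 546 CPM in vehicle females. In males the sums were 268, 310.3 and 325 CPM at 1250 ppm and 247, 303 and 357 CPM on vehicle. None of the 10 markers passed, and all 10 were negative in females with a median of -0.16, against 4 of 10 in males. In whole liver, fewer cells of a type and less RNA per cell cannot be told apart. Stellate cell markers were negative in 10 of 10 in females (median -0.15) and in 3 of 10 in males, with none past the threshold. With the sexes averaged, 10 of 10 Kupffer markers were negative at day 5 (median -0.07), while 8 of 10 were positive at day 28 (median 0.11). Of the stellate markers 7 of 10 were negative at day 5 (median -0.05), while 9 of 10 were positive at day 28 (median 0.12). Markers of pancreas and fat summed to at most 1.52 and 4.18 CPM in any library, and those of gall bladder and gut epithelium to at most 4.40 CPM.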

How the data were processed

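The deposited values are read counts per gene, 1 table per organ and day. The tools the authors name are Trimmomatic, Bowtie2, SAMtools and HTSeq, and the build is mm10 (per the submitters' processing notes). Per the labels' protocols the libraries came from a TruSeq Stranded mRNA kit. Not given in the sources used here are the versions of these tools, the annotation and how HTSeq treated strand. The members and the gene lists were chosen with earlier results of these data known.

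Counts of all 60 day 5 liver libraries were fitted in edgeR 4.0.16 (limma 3.58.1, R 4.3.3) with TMM factors, filterByExpr and the robust quasi-likelihood test, with 1 mean for each of the 10 dose and sex groups, so that all groups share an estimate of the spread. The dose effect is the mean of the female and male contrasts, and p-values were adjusted by Benjamini-Hochberg over all genes tested. The same fit gave each sex, the difference between them and 2500 against 1250 ppm. Day 28 was fitted likewise, and the difference between days in a joint fit. SE is the log2 fold change divided by the root of the F statistic. Levels are CPM from the same factors. The script was tested on simulated counts.

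Named genes are those past the threshold with the sexes averaged, up to 5 more in each direction in each sex, those past it in the difference tests, and of each list up to 4 members past it and the first 2 as listed. Overlapping neighbours (Ddx5, Cyp2c53-ps), Klhl26 and some Cyp2c genes were chosen after their values were seen. Alternatives were DESeq2 1.42.0, RLE factors, no filter, a term for the place of a library within its block of title numbers, fits of only the groups compared, an additive fit and leaving out each library.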

Additional observations from a re-analysis of the deposited data

Results flagged for a closer look

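In 8 cases 1 library lay further from the rest of its group of 6 than Dixon's 95% critical value for 6 samples allows, as the gap to the next library divided by the range. The search covered 92 sets, 23 genes in 4 groups, and chance gives about 1 such case in 20 sets. No explanation was weighed.

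Library LIVER_130, a 1250 ppm male, had the highest Malat1 of its group at 653 CPM, and the next library had 422 CPM. Library LIVER_133, also a 1250 ppm male, had the highest Ugt2b35 at 560.4 CPM, against 446 CPM in the next. Library LIVER_129 of the same group had the highest Msmo1 at 562 CPM, against 467 CPM. Among 1250 ppm females, LIVER_144 had the lowest Ugt2b35 at 194 CPM, with 253 CPM in the next, and LIVER_142 had the highest Mir3064 at 3.64 CPM, with 2.19 CPM in the next. Vehicle female LIVER_094 stood apart for both Ccnl2, where its 91.6 CPM was the highest (76.6 CPM in the next), and Rpph1, where its 0.679 CPM was the lowest (0.945 CPM in the next). Vehicle male LIVER_088 had the lowest Adrb3 at 17.9 CPM, with 25.4 CPM in the next.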

How the results depend on the processing

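Against 17 genes with the sexes averaged, 11 passed with no low-count filter, 26 with a term for the place of a library within its block of numbers, and 5 both with only the groups compared and with the additive fit of the 24 libraries. Without 1 library the count ran from 6 to 30. With only the 2 groups of a sex in the fit, 0 passed in females and 3 in males, and DESeq2 called 21 in males. For 2500 against 1250 ppm, 12 passed in DESeq2 and 0 with only the groups compared. At day 28, against 42, 84 passed in DESeq2 and 21 with only the groups compared, and for the difference between days 0 passed with only the groups compared. The cause was not tested, although a fit of fewer libraries has fewer residual degrees of freedom. RLE factors gave counts within 1.5 times of those with TMM factors in each comparison. Of 98 single genes refitted at day 5, 20 changed sign in some fit, none of them past the threshold in either fit. Among them, Cyp3a41a had -1.05 in the additive fit, against 0.96, and Cyp2b9 had 0.83 without vehicle male LIVER_082, against -0.21. Day 28 and the difference tests were not refitted without single libraries. Cyp2c54, Cyp2c50, Cyp2c29, Cyp3a11 and Cyp2c55 passed in 6 of 6 alternatives and without each of the 24 libraries, where their highest adjusted p was 0.0108, for Cyp2c55. No paired analysis was possible because the groups compared share no title numbers. Genes near 1 CPM, such as Rpph1, Fendrr and Mir3064, rest on few reads.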

Other observations

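Further lists held no gene past the threshold with the sexes averaged. Of 13 heat shock chaperone genes 11 were positive in females with a median log2 fold change of 0.20, and 10 were negative in males with a median of -0.11. Of 18 clock genes 12 were negative with a median of -0.04, and of 12 immediate early genes 7 were negative with a median of -0.03. Of 9 thyroid hormone targets and carriers 5 were negative with a median of -0.02. Of 7 Cyp2a and Cyp2b genes 5 were positive with a median of 0.04. Nuclear noncoding RNAs were negative in 5 of 6, with a median of -0.26, and in males 1 of them, Malat1, fell. Neat1, which builds paraspeckles, had -0.66 (adjusted p = 0.156, edgeR). Sinusoidal endothelial markers were positive in 8 of 10 with a median of 0.09, and periportal hepatocyte markers in 5 of 9 with a median of 0.0016.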
